A study of Mus musculus with 12 samples.

Results

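Fibroblast growth factor (FGF) ligands, their receptors and the inhibitors that limit their signal were examined in spermatogonia of the cryptorchid testis. Members were all rows of the deposited table with the symbol *Fgf* and a number, any symbol beginning with *Fgfr*, *Spry1* to *Spry4* or *Spred1* to *Spred3*, together with *Dusp4*, *Dusp6* and *Klb*. This gave 38 of the 21859 genes: 15 secreted ligands, 3 endocrine ligands, 4 intracellular homologues, 4 receptors, 1 receptor-like gene, 1 co-receptor, 8 feedback inhibitors and 2 genes that only carry the receptor's name. RNA was measured in 5 control and 7 cryptorchid libraries of GFRa1+/KIT- cells from adult male GFRa1-EGFP mice, in which the fluorescent protein marks cells that use the gene of the GDNF receptor GFRa1 and which were sorted as negative for the differentiation marker KIT. Surgery at 8 to 10 weeks of age fixed the left testis to the wall of the abdomen, the right testis stayed in the scrotum as the control, and both were taken on day 10. Both groups therefore carried the reporter, and the controls came from operated animals. The labels give the genotype of the control libraries as WT and that of the others as Cryptorchid. The strain background of the reporter mice, the number of mice and which libraries share a mouse are not given in the sources used here, so *P*-values measure the spread between these libraries, some of which may come from one animal. Control tubules were digested at 32°C and cryptorchid tubules at 37°C, both for 9 min, so condition and digestion temperature cannot be told apart.

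Secreted FGFs bind heparan sulfate and receptor tyrosine kinases, which pass the signal through the adaptor FRS2 to RAS and ERK. ERK activity in turn induces its own inhibitors, the Sprouty and SPRED proteins, which act on RAS and RAF, and the phosphatases DUSP4 and DUSP6, which act on the kinases themselves. In the testis FGF9 is needed for the male fate of the gonad, and FGF2 is added with GDNF to the medium in which spermatogonial stem cells are grown.

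Each library was made by Smart-seq2 from RNA of about 200 cells and held 4511730 to 24345368 reads on genes in the control group and 3306771 to 20027902 in the cryptorchid group. Values are log2 RPM, that is log2 of reads scaled to the library's total. A gene without reads was given a low value that stands for 0.9 reads, from -5.00 in the deepest to -1.92 in the shallowest library, so at low levels the value follows the depth. The median of this value was -3.50 over the control and -2.38 over the cryptorchid libraries. At very low read numbers it therefore raises the cryptorchid mean above the control mean. *Fgf17*, with 2 reads in all, had means of -3.64 in control and -2.88 in cryptorchid cells. The libraries formed a pair of sets that follow the replicate number. Replicates 1 to 3 had 53.2% to 60.8% even read numbers among genes with 1 to 20 reads, against 48.2% to 50.5% in replicates 4 and above, and differences within each set are given beside the results. The values are sums over many cells, in which fewer cells with a transcript and less of it per cell cannot be told apart.

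No member passed correction for multiple tests. Of the 38 members, 29 passed the filter on low values (log2 of the mean RPM above -1). That mean counts the value given to genes without reads, and with 0 RPM in its place 27 would have passed, without *Fgf16* and *Fgf7*. By at least 2-fold with an unadjusted *P*-value under 0.05 in limma's moderated test, 2 members were higher in cryptorchid cells (*Fgf9* and *Fgf16*) and 3 were lower (*Fgf22*, *Fgf2* and *Dusp4*). Over all 16932 genes tested, 3.56% were called higher and 2.36% lower by the same rule, 603 and 399 genes, and after quantile normalization the numbers were 457 and 542 for all genes and 1 and 4 for members. At these shares 1.03 and 0.684 of the 29 members would be called. *Fgf16*, with no reads in control cells, passed the filter only through the cryptorchid libraries and the value given to genes without reads, so it is not read against the background, and *Fgf9* is then the 1 member called higher. Without control replicate 5 the count of lower members was 0. Unadjusted *P*-values were under 0.05 for 7 members, among them *Fgfr1*, which fell just short of the 2-fold limit, and for 9.49% of all genes. The Benjamini-Hochberg adjusted *P*-value was under 0.05 for 0 members and for 0.0118% of all genes, and its lowest value for a member was 0.291, for *Fgfr1*. No member had groups without overlap, which 0.555% of all genes had with cryptorchid higher and 0.283% with cryptorchid lower. The median log2 difference, cryptorchid minus control, was -0.11 over the tested members and 0.10 over all genes tested.

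**Figure D1:**
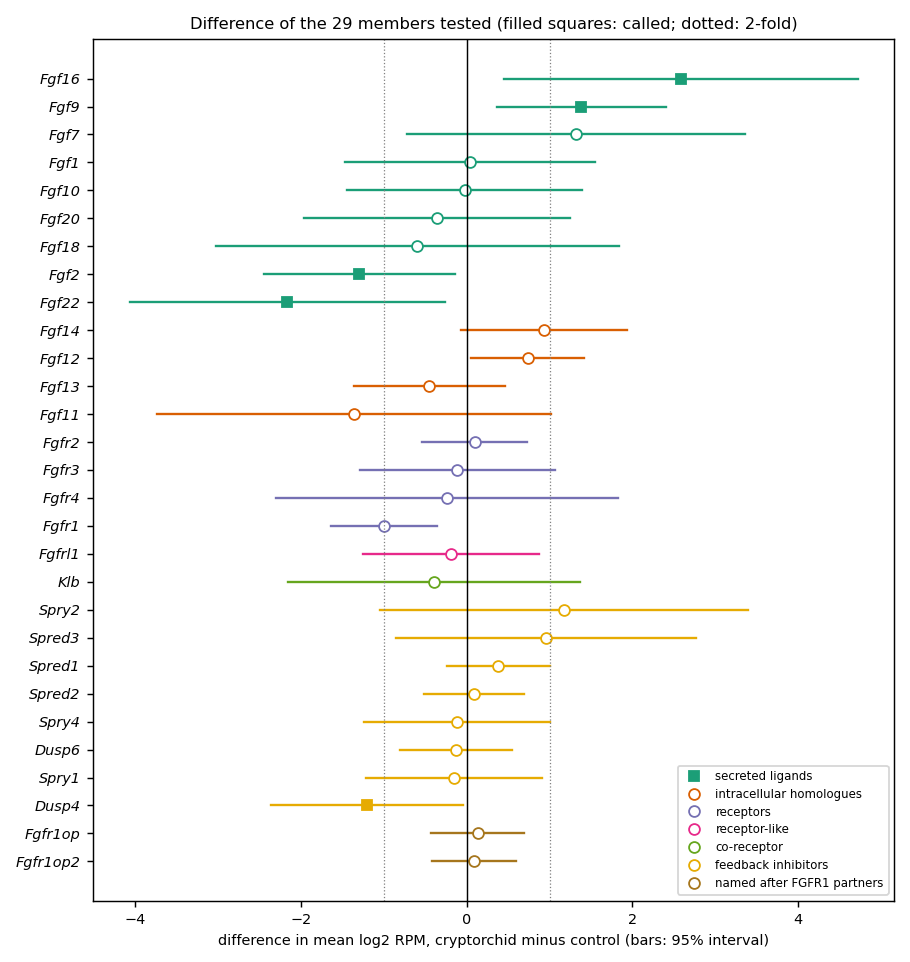
Difference in mean log2 RPM between 7 cryptorchid and 5 control libraries for the 29 tested members, ordered by role (colours); bars are 95% intervals from limma, filled squares are members called at 2-fold and an unadjusted *P*-value under 0.05, and dotted lines mark 2-fold. The 5 called members lie beyond 2-fold, *Fgfr1* lies at the line with a value of -1.0, and most other intervals cross 0.

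*Fgf9* (chr14:58070547-58112720 on GRCm38, plus strand) was higher in cryptorchid cells. Its log2 RPM was 1.90, 2.04, 2.82, 2.79 and 2.41 in control replicates 1 to 5, on 24 to 118 reads. In cryptorchid replicates 1 to 7 it was 2.82, 2.43, 3.48, 4.43, 4.48, 4.40 and 4.39, on 60 to 157 reads. Of the cryptorchid libraries, 5 of 7 were above every control, with replicates 4 to 7 close together and replicate 3 below them. Cryptorchid replicates 1 and 2 were at control levels. The difference was 1.38 ± 0.49 (SE, 5 and 7 libraries), a 2.61-fold rise (limma, unadjusted *P*=0.0109, adjusted *P*=0.379). It was 0.66 within replicates 1 to 3 and 1.82 within replicates 4 and above. The call was kept with each of the 12 libraries left out, with values between 1.26 and 1.61.

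*Fgf2* (chr3:37348346-37410108, plus strand), the ligand used in stem cell culture, was lower in cryptorchid cells. The control values were 4.42, 4.20, 2.43, 3.21 and 4.0, on 51 to 528 reads. The cryptorchid values were 3.82, 2.69, 1.25, 2.70, 2.62, 2.06 and 1.36, on 12 to 314 reads. The groups overlapped, as control replicate 3 lay among the cryptorchid libraries and cryptorchid replicate 1 among the other controls. The difference was -1.30 ± 0.55 (SE; limma, unadjusted *P*=0.0300, adjusted *P*=0.470), with -1.10 within replicates 1 to 3 and -1.42 within replicates 4 and above. Without control replicate 1, 2 or 5 or cryptorchid replicate 3 or 7 the call was lost, with values from -1.21 to -1.10. A stretch of 5199 bases of *Fgf2* overlaps *Nudt6* on the other strand, and the strand of counting is not stated. *Nudt6*, a gene antisense to *Fgf2*, stood at 4.36 ± 1.19 in control and 3.36 ± 1.03 (SD) in cryptorchid cells, a difference of -1.01 (limma, unadjusted *P*=0.0978). The reads of both genes thus cannot be told apart in the shared stretch. By library *Nudt6* was at 5.16, 5.33, 2.38, 4.24 and 4.71 in control cells. In cryptorchid cells it was at 4.78, 4.07, 1.88, 3.88, 3.69, 2.90 and 2.30. Both genes were lowest in replicate 3 of each group, and among cryptorchid libraries both were highest in replicate 1. The part of *Nudt6* reads in the lower values of *Fgf2* was not tested.

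*Fgf22* (chr10:79755076-79758596, plus strand), a ligand of the FGF7 subfamily, was lower as well, at low read numbers. Its control values were 2.26, 1.66, -0.18, 2.79 and 2.53, on 9 to 117 reads. In cryptorchid cells they were 0.65, 1.69, -2.07, -0.21, -1.92, -2.19 and 1.58, on 0 to 36 reads, with no read in replicate 5. Replicates 3 to 6 of the cryptorchid group were below every control, while the other three lay within the control range. The difference was -2.16 ± 0.91 (SE; limma, unadjusted *P*=0.0282, adjusted *P*=0.469), with -1.16 within replicates 1 to 3 and -3.34 within replicates 4 and above. The call was lost with control replicate 1, 4 or 5 or cryptorchid replicate 3, 5 or 6 left out (-2.05 to -1.86). The gene shares 82 bases with *Rnf126* on the other strand, whose difference was -0.55 (limma, unadjusted *P*=0.0865).

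*Fgf16* (chrX:105764279-105774939, plus strand), a ligand of the FGF9 subfamily, had 0 reads in all 5 control libraries. The cryptorchid libraries had 30, 7, 0, 0, 2, 14 and 0 reads. Reads were thus seen in 4 of 7 cryptorchid libraries, and most of them in replicates 1 and 6. Summed over libraries, 53 reads gave 0.896 RPM in cryptorchid cells. Over all control libraries 3 reads would give 0.0409 RPM, 21.9-fold less. That ratio of summed reads covers counting error only. It is no lower bound for the difference between the groups, as libraries of one group varied beyond counting error and 3 of 7 cryptorchid libraries had no reads. The fitted difference of 2.59 ± 1.01 (SE; limma, unadjusted *P*=0.0202, adjusted *P*=0.431) depends on the value given to genes without reads. With a common floor for these values it was 1.19 and with log2(RPM + 1) it was 0.61, and neither was called (limma, unadjusted *P*=0.110 and unadjusted *P*=0.0935), nor was the value of 2.14 without cryptorchid replicate 6 (limma, unadjusted *P*=0.0516). The call was also lost with quantile normalization (1.77; limma, unadjusted *P*=0.0708) and with array weights (1.88; limma, unadjusted *P*=0.0567).

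The other secreted ligands that could be tested did not pass the call. *Fgf1*, which binds all FGF receptors, had a mean log2 RPM of 3.18 ± 1.18 in control and 3.22 ± 1.53 (SD) in cryptorchid cells, with single libraries between 0.14 and 4.71. *Fgf7*, a stromal ligand for epithelial receptors, had 0 to 28 reads, and its difference of 1.32 had an interval from -0.72 to 3.36. It lies wholly inside *Fam227b* on the other strand, whose difference was -0.05. *Fgf10*, of the same subfamily, stood at 0.82 ± 0.47 and 0.80 ± 0.91 on 3 to 71 reads. *Fgf18* had 0 to 24 reads and differed by -0.60, and *Fgf20* had 2 to 36 reads and differed by -0.36, with intervals from -3.03 to 1.83 and from -1.97 to 1.25. *Fgf20* shares 874 bases with *Micu3* on the other strand, which differed by -0.03. All these intervals reach past a 2-fold change in at least one direction, so changes of that size remain possible.

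The remaining 9 ligands were too low to test, namely the secreted *Fgf3*, *Fgf4*, *Fgf5*, *Fgf6*, *Fgf8* and *Fgf17* and the endocrine *Fgf15*, *Fgf21* and *Fgf23*. Of their 108 values, 72 were at 0 reads. The most reads in a library were 48 for *Fgf8* and 36 for *Fgf15*, both in cryptorchid replicate 1, and *Fgf6* and *Fgf17* had 3 and 2 reads in all. Of the 36 values with reads, 21 came from replicates 1 and 2, the deepest libraries of each group. *Fgf3*, *Fgf4* and *Fgf15* are neighbours on chromosome 7, 2.9 and 31.3 kb apart, and *Fgf6* and *Fgf23* lie 44.7 kb apart on chromosome 6.

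**Figure D2:**
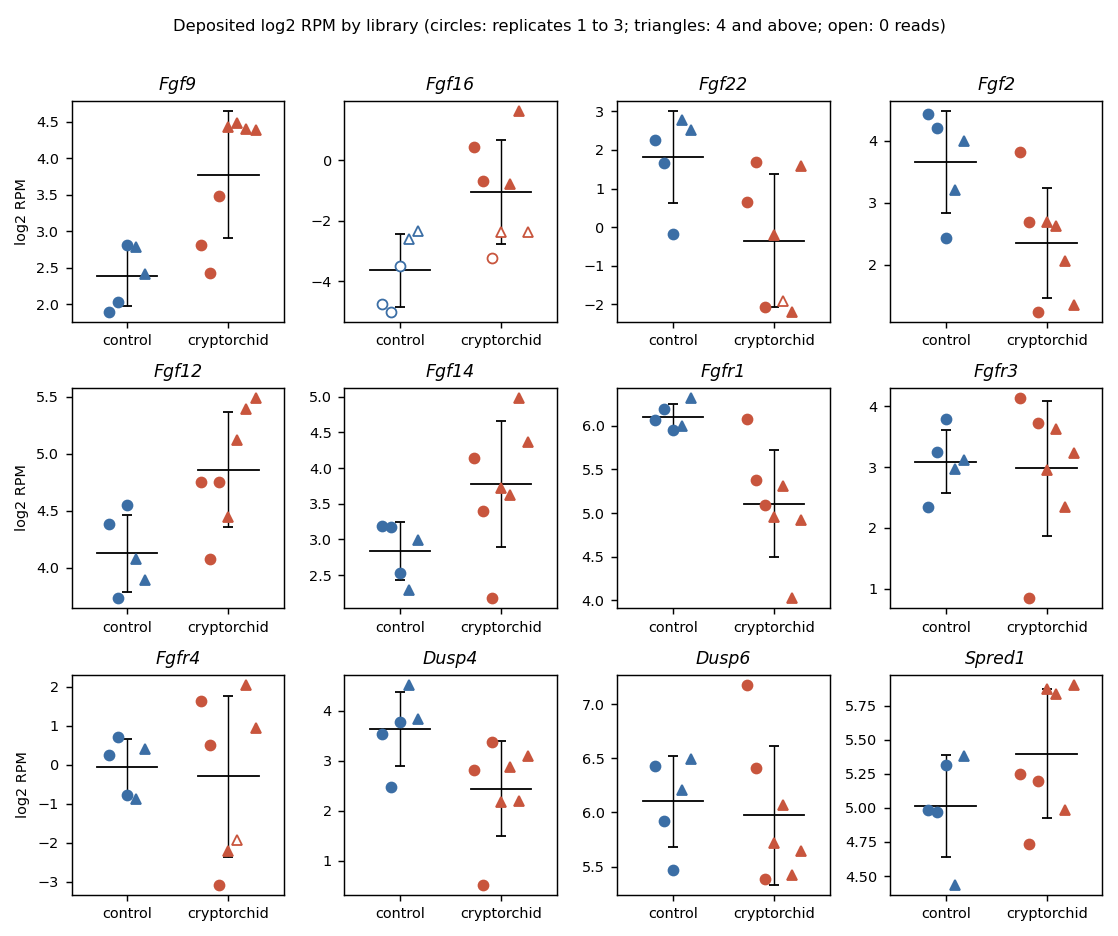
Deposited log2 RPM of 12 members in each library, with control in blue and cryptorchid in red; circles are replicates 1 to 3, triangles replicates 4 and above, open symbols libraries with 0 reads, and bars mean ± SD. Cryptorchid replicates 4 to 7 lie together at 4.39 to 4.48 for *Fgf9*, and 6 of 7 cryptorchid libraries lie below every control for *Fgfr1*.

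The intracellular FGF homologues are not secreted and bind voltage-gated sodium channels. *Fgf12* had a higher mean in cryptorchid cells by less than 2-fold and was not called. Its control values were 4.39, 3.73, 4.55, 4.08 and 3.89, and its cryptorchid values were 4.75, 4.08, 4.76, 4.45, 5.12, 5.39 and 5.49, on 67 to 600 reads. Of the cryptorchid libraries, 5 of 7 were above every control. The difference was 0.73 ± 0.33 (SE; limma, unadjusted *P*=0.0372, adjusted *P*=0.490), with 0.31 and 1.13 within the sets of replicates 1 to 3 and 4 and above. It was 0.67 with median centring (limma, unadjusted *P*=0.0583) and 0.66 with voom (limma, unadjusted *P*=0.0572).

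*Fgf14* gave control values of 3.19, 3.18, 2.53, 2.30 and 3.0 and cryptorchid values of 4.15, 3.40, 2.18, 3.72, 3.62, 4.98 and 4.36. Cryptorchid replicate 3 was the lowest of all libraries and the other six were above every control. Its difference of 0.93 ± 0.48 (SE) did not pass (limma, unadjusted *P*=0.0651), and without cryptorchid replicate 3 it was 1.20 and was called (limma, unadjusted *P*=0.0108). *Fgf13* differed by -0.45 with an interval from -1.36 to 0.46. *Fgf11*, on 0 to 41 reads, differed by -1.36 with an interval from -3.74 to 1.02, and by -2.35 without control replicate 1, which had no reads, where it was called.

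*Fgf12*, *Fgf14* and *Fgf13* are among the longest members, with spans of 593.0, 699.2 and 505.9 kb. Of the 226 tested genes with a span of 500 kb or more, 25 were called higher (11.1%) and 0 lower, their median log2 difference was 0.46 and 87.2% had a higher mean in cryptorchid cells. Among the 16390 shorter genes 3.45% were called higher and 2.37% lower, with a median of 0.09 and a higher mean for 56.4%. *Fgf12* and *Fgf14* had a higher mean in cryptorchid cells, as most long genes had, and *Fgf13* did not. The part of gene length in these differences was not tested.

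Among the receptors, *Fgfr1* (chr8:25513654-25575718, plus strand) was lower in cryptorchid cells. Its control values were 6.07, 6.19, 5.96, 6.0 and 6.32, with an SD of 0.15 and 352 to 2105 reads. The cryptorchid values were 6.08, 5.38, 5.09, 4.96, 5.30, 4.02 and 4.92, on 74 to 1513 reads. The controls were tightly grouped, 6 of 7 cryptorchid libraries were below all of them, and cryptorchid replicate 1 was at the control level. The difference of -1.0 ± 0.30 (SE; 95% interval -1.64 to -0.36; limma, unadjusted *P*=0.00419, adjusted *P*=0.291) fell just short of the 2-fold limit, and the gene was not called. Within replicates 1 to 3 it was -0.55 and within replicates 4 and above -1.36. With any 1 library left out it was between -1.16 and -0.82, and it passed the limit in 6 of these 12 fits. With array weights the difference was -1.13 and the adjusted *P*-value 0.0285, and over all fits tried the adjusted *P*-value lay between 0.0285 and 0.491.

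*Fgfr3* and *Fgfr4* were detected at lower levels. The log2 RPM of *Fgfr3* was 2.34, 3.25, 3.80, 2.97 and 3.11 in control and 4.14, 0.84, 3.72, 2.96, 3.62, 2.34 and 3.24 in cryptorchid libraries. For *Fgfr4* it was 0.25, 0.71, -0.77, -0.87 and 0.41 in control and 1.65, 0.52, -3.07, -2.21, -1.92, 2.06 and 0.95 in cryptorchid libraries, on 0 to 70 reads. The groups overlapped at both genes, and the cryptorchid libraries of *Fgfr4* spread to both sides of the controls. The differences were -0.11 (interval -1.29 to 1.06) and -0.24 (interval -2.30 to 1.83).

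No level can be given for *Fgfr2*. The deposited values behaved as sums over whole gene spans, introns included. Of 221 genes that hold another gene with at least 1000 reads inside their span, 221 (100%) had at least as many reads as that inner gene in all 12 libraries. GENCODE vM21 gives *Fgfr2* a span of 2960.9 kb (chr7:130162451-133123350, minus strand), whereas RefSeq gives 104.4 kb (chr7:130162451-130266808). *Fgfr2* had 1029 to 1473 RPM in the 12 libraries, and the 28 genes of the table that lie inside the longer span, such as *Ate1* and *Bub3*, summed to 81.0% to 92.8% of it. The remainder of 83.5 to 196 RPM also holds the introns and the stretches between these genes. It can hold reads of *Ctbp2* too, which overlaps the span in part and is not among the 28. The mean of *Ctbp2* was 54.0 RPM in control and 58.9 RPM in cryptorchid cells. The listed difference of 0.09 is thus no measure of the receptor.

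**Figure D3:**
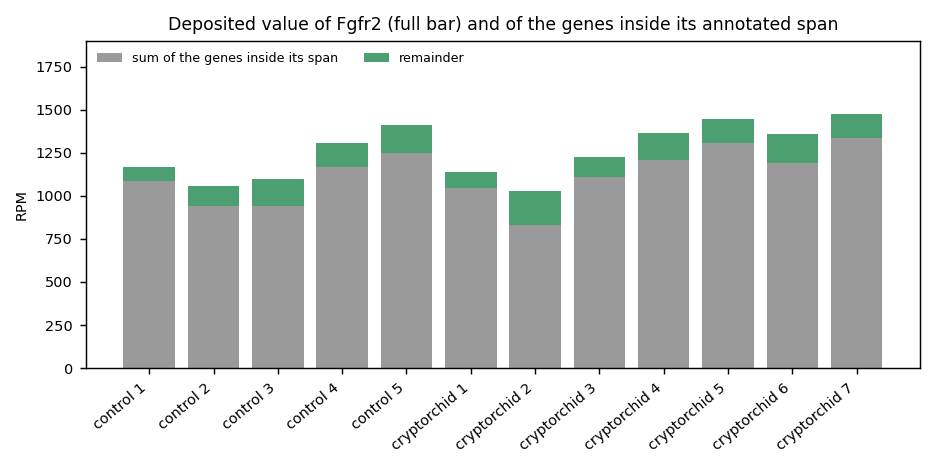
Deposited RPM of *Fgfr2* in each library (full bar), split into the sum of the 28 genes inside its annotated span (grey) and the remainder (green). Grey takes 81.0% to 92.8% of every bar, in control and cryptorchid libraries alike.

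*Fgfrl1*, a receptor-like protein without a kinase domain, stood at 2.92 ± 0.74 in control and 2.73 ± 0.65 (SD) in cryptorchid cells. *Klb*, the co-receptor for endocrine FGFs, stood at 1.83 ± 0.71 and 1.44 ± 1.84. Its cryptorchid values ran from -2.22 on 1 read in replicate 7 to 3.29 in replicate 2, and its difference was 0.88 within replicates 1 to 3 and -1.47 within replicates 4 and above. Neither gene passed the test. *Fgfr1op*, which encodes a centrosomal protein, and *Fgfr1op2* carry the receptor's name because they were found fused to it. They were among the best covered members, with 588 to 4514 and 347 to 2254 reads, and differed by 0.13 and 0.09, with intervals from -0.43 to 0.69 and from -0.42 to 0.59. A 2-fold change lay outside both intervals. *Fgfr1op2* shares 633 bases with *Ints13* on the other strand, which differed by 0.61 (limma, unadjusted *P*=0.0297).

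Of the 8 feedback inhibitors, 1 was lower in cryptorchid cells and the others did not pass the test. *Dusp4* (chr8:34807297-34819894, plus strand), a nuclear phosphatase of MAP kinases, had control values of 3.54, 2.48, 3.79, 4.53 and 3.85 on 65 to 284 reads. Its cryptorchid values were 2.83, 0.52, 3.37, 2.18, 2.87, 2.21 and 3.10 on 16 to 158 reads. Control replicate 2 lay among the cryptorchid libraries, and cryptorchid replicate 2 was far below its group. The difference was -1.20 ± 0.55 (SE; limma, unadjusted *P*=0.0429, adjusted *P*=0.508), with -1.03 within replicates 1 to 3 and -1.60 within replicates 4 and above. It was -0.88 without cryptorchid replicate 2 (limma, unadjusted *P*=0.0783), and the call was also lost without control replicate 1, 3, 4 or 5 or cryptorchid replicate 4 or 6, which moved the value to between -1.22 and -0.98. With voom on the recovered reads the difference was -1.01 and was not called (limma, unadjusted *P*=0.0692).

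*Dusp6*, the ERK phosphatase of the cytoplasm, was one of the highest inhibitors, at 6.10 ± 0.42 in control and 5.98 ± 0.64 (SD) in cryptorchid cells on 195 to 3235 reads. Its difference of -0.13 had an interval from -0.80 to 0.55, with 0.39 within replicates 1 to 3 and -0.64 within replicates 4 and above. A 2-fold change of *Dusp6* in either direction lay outside that interval, while both sets of libraries differed in sign. *Spred1* gave control values of 4.98, 4.97, 5.31, 4.44 and 5.38 and cryptorchid values of 5.25, 4.74, 5.20, 5.88, 5.84, 4.98 and 5.91, with 3 of 7 cryptorchid libraries above every control and a difference of 0.38 (limma, unadjusted *P*=0.214). *Spred2* stood at 6.07 ± 0.47 and 6.15 ± 0.46, a difference of 0.09 with an interval from -0.52 to 0.69. *Spred3*, on 4 to 27 reads, differed by 0.96 with an interval from -0.85 to 2.77. It shares 202 bases with *Ggn* on the other strand, which differed by -1.66 (limma, unadjusted *P*=0.112).

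The Sprouty genes gave no difference that passed. *Spry1* stood at 3.03 ± 0.97 in control and 2.88 ± 0.50 (SD) in cryptorchid cells, and *Spry4* at 3.49 ± 0.99 and 3.37 ± 0.89. *Spry2*, on 0 to 110 reads, differed by 1.17 with an interval from -1.04 to 3.39. Their intervals included 2-fold changes in at least one direction, -1.22 to 0.91 for *Spry1* and -1.25 to 1.01 for *Spry4*.

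**Figure D4:**
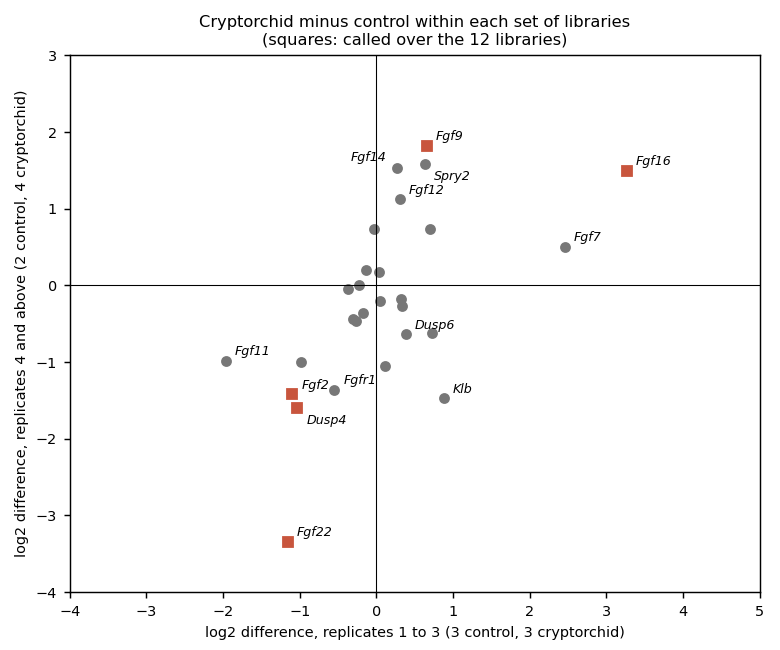
Difference in mean log2 RPM, cryptorchid minus control, within replicates 1 to 3 (horizontal, 3 control and 3 cryptorchid libraries) and within replicates 4 and above (vertical, 2 control and 4 cryptorchid), for the 28 tested members other than *Fgfr2*; red squares are the called members. Of the 28 members, 19 have the same sign in both sets and 9 do not, *Klb* and *Dusp6* among the latter. The 5 called members and *Fgfr1* are among the 19. They were picked by their values over these same 12 libraries, so their agreement in sign is no separate support.

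Of 92 tested genes in 6 lists of other genes of the pathway, 2 were called higher and 1 lower, where the shares of all genes would give 3.28 and 2.17. Of 17 FGF cofactors and heparan sulfate proteoglycans, *Kl* was called higher. It encodes the co-receptor for FGF23, and its log2 RPM was -1.16 ± 2.46 in control and 1.41 ± 1.57 (SD) in cryptorchid cells (difference 2.57; limma, unadjusted *P*=0.0273), a call that was lost without control replicate 2 or 5 or cryptorchid replicate 3 or 5 (1.61 to 2.31) and with quantile normalization (2.01; limma, unadjusted *P*=0.0545). The glypican *Gpc6* (0.93; unadjusted *P*=0.00705) and the basement membrane proteoglycan *Hspg2* (-0.91; unadjusted *P*=0.0485) stayed under 2-fold in limma. Of 15 heparan sulfate enzymes, the extracellular sulfatase *Sulf1* was called higher, with 5.21 ± 0.11 in control and 6.60 ± 0.55 in cryptorchid cells, without overlap (limma, unadjusted *P*=1.07e-04, adjusted *P*=0.129). With a term for the set of libraries its difference was 1.37 (limma, adjusted *P*=0.0490). The sulfotransferase *Hs3st1* (0.89) and *Xylt1* (1.0), which starts the sugar chains, were under 2-fold, with limma's unadjusted *P*=0.00877 and unadjusted *P*=0.00961.

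None of the 13 receptor adaptors, 17 genes from RAS to ERK and 12 other feedback inhibitors was called. In these lists small *P*-values in limma belonged to the docking protein *Gab2* (-0.77; unadjusted *P*=0.0317), the adaptor *Shc1* (-0.64; unadjusted *P*=0.0364) and *Frs3* (-1.62; unadjusted *P*=0.0552), and to the gene of an ERK kinase, *Map2k2* (-0.76; unadjusted *P*=0.0261) and the RAS inhibitor *Rasa1* (0.52; unadjusted *P*=0.0636). For the inhibitors the smallest belonged to differences of 0.49 for *Lrig1*, -1.0 for *Dusp10* and 1.57 for *Dusp8*, with unadjusted *P*=0.0844, unadjusted *P*=0.0923 and unadjusted *P*=0.0983 in limma. With a term for the set of libraries *Dusp8* was called, at 1.86 (limma, unadjusted *P*=0.0359). Of 18 ETS factors and ERK-responsive genes, the ETS factor *Etv4* was called lower, with 4.59 ± 0.60 in control and 3.42 ± 1.01 (SD) in cryptorchid cells (difference -1.16; limma, unadjusted *P*=0.0285), a call that was lost without control replicate 1 or 2 or cryptorchid replicate 4, 5 or 6 (-1.06 to -0.98) and with voom (-0.94; limma, unadjusted *P*=0.0573). *Ier3* (1.479; unadjusted *P*=0.103) and *Egr2* (0.52; unadjusted *P*=0.179) did not pass in limma, and with the term for the set *Ier3* was called, at 1.89 (limma, unadjusted *P*=0.0101).

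Of 15 genes of undifferentiated spermatogonia, the sorted cells, 0 were called, and their summed RPM was 1999 to 2609 in control and 1991 to 2726 in cryptorchid libraries. *Uchl1* and *Zbtb16* stood at 9.37 and 8.33 in control and 8.82 and 8.54 in cryptorchid cells. Of 6 genes of differentiating spermatogonia *Dnmt3b* was lower (-1.20) and *Stra8* higher (1.09), and of 9 spermatocyte genes, led by *Sycp1* and *Sycp3*, 0 were called. All 8 spermatid genes had a lower mean in cryptorchid cells, *Prm2* (-3.73), *Prm1* (-2.40) and *Tssk6* (-3.77) were called lower, and the summed RPM of the list was 495 to 2742 in control and 15.9 to 1841 in cryptorchid libraries. The part of spermatid RNA in the lower values of *Fgf2*, *Fgf22*, *Dusp4* and *Fgfr1* was not tested. Of 10 endothelial genes *Cdh5*, *Tie1* and *Vwf* were higher (2.01, 2.86 and 1.80), with summed RPM of 32.3 to 57.6 and 46.9 to 80.4 in the respective groups, while their best covered genes *Egfl7* and *Tek* differed by -0.25 and 0.05. Of 6 tested macrophage genes *Mrc1* was higher (2.02) and *Csf1r* differed by 0.35 (sums 3.63 to 23.8 and 11.3 to 36.6 RPM), and of 8 peritubular and stromal genes *Pdgfra* and *Des* were higher (1.43 and 2.55) and *Col1a1* differed by -0.23 (sums 23.4 to 77.0 and 28.0 to 68.1 RPM). The mean was higher in cryptorchid cells for 9 of 10 endothelial, 4 of 6 macrophage and 6 of 8 peritubular and stromal genes. Among all tested genes with an annotated span this held for 56.8%. In all, 7 of 78 tested marker genes were called higher and 4 lower, against 3.56% and 2.36% of all genes. *Tie1* and *Des*, among the 7, had 0 to 1 and 0 to 3 reads in control libraries. They passed the filter only through the cryptorchid libraries, and their differences depend on the value given to genes without reads. Neither is read against the background.

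No gene was called among 10 Sertoli, 3 Leydig and 3 lymphocyte genes tested. Their summed RPM was 47.2 to 283 and 44.3 to 255 for Sertoli genes (*Clu*, *Wt1*), 8.64 to 15.5 and 6.18 to 47.8 for Leydig genes (*Star*, *Cyp11a1*) and 1.11 to 5.29 and 0.857 to 18.6 for lymphocyte genes (*Cd79a*, *Ms4a1*) in control and cryptorchid libraries. *Hsd3b6* and *Nkg7* had no reads in any library. The part of endothelial, stromal and macrophage RNA in the higher values of *Fgf9* and *Fgf16* was not tested.

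The base composition at the start sites, which the choice of genes did not use, varied widely among the members. RefSeq windows of 300 bases (250 before to 50 after the start, GRCm38.p6) were at hand for 28 members, 36 windows in all, of which *Fgf12* and *Fgf13* gave 4 each. Among the members without a window were *Fgfr1*, *Dusp4* and *Fgf16*, which these figures thus do not cover. Single windows held 3 to 47 CG dinucleotides and 40.3% to 78.7% G and C. They held a median of 19.5 CG dinucleotides and 63.2% G and C, against 7 and 52.7% over all 32851 windows, and 80.6% of them against 43.5% had at least 10. All windows together belong to 27025 gene symbols and were not limited to the 21859 genes of the deposited table. They are thus not a set matched to the members, here or for the motifs below. The GC box GGGCGG, searched on both strands, was in 24 of the 36 (66.7%) and in 35.7% of all windows, the ETS motif CCGGAAG in 1 (*Fgfrl1*) and in 8.86%, and TATAAA in 3 and in 13.6%. The window of *Fgf9* was among the less CG-rich of the members with 12, and that of *Fgf22* had 18. The stretches just before the RefSeq start of *Fgf9* (chr14:58072436-58072685, plus strand), which was called higher, and before the annotated start of *Fgf22* (chr10:79754859-79755075, plus strand), which was called lower, are shown 5' to 3' with each CG in capitals. The stretch of *Fgf9* lies inside the longer span that GENCODE gives the gene, clear of its annotated exons. The former holds 11 CG pairs in 250 bases. None lies in its first part, some lie close together right after it, and the others are spread up to near its end. The latter holds 10 in 217 bases, gathered in the part nearer to the gene.
Fgf9: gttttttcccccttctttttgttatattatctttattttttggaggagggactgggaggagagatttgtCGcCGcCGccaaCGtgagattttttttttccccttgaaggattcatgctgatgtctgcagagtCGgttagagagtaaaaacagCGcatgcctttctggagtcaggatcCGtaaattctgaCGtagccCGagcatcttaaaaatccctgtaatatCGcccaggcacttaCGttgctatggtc
Fgf22: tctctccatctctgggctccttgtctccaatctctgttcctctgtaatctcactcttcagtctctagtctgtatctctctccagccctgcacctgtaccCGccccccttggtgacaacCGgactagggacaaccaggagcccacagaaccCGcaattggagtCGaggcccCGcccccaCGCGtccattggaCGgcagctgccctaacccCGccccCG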

How the data were processed

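Per the submitters' processing notes and the study's methods, the authors used Trim Galore 0.6.6 for trimming and HISAT2 2.1.0 with mm10 for mapping. They deposited log2 RPM from gene counts made in SeqMonk. The values hold 0 columns of no sample. Whole reads were recovered from the steps between values (100% whole under 1000 reads, within 0.05 of a read), and reads without molecular identifiers give counting error only. Chi-square per degree of freedom between libraries of one group was 12.8 to 253 over 31 pairs, so each library was 1 sample.

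Groups and replicate numbers came from the labels. The 38 members matched 1 gene each in GENCODE vM21 (GRCm38, the build mm10 is based on). limma 3.58.1 in R 4.3.3 (lmFit, eBayes with trend, two-sided) was fitted on all 12 libraries to the 16932 genes that passed the low-value filter (log2 of their mean RPM above -1, the values of genes without reads included) and checked on simulated data. A gene was called at 2-fold and an unadjusted *P*-value under 0.05. Differences are between means of the deposited values, with no pseudocount added. As the values are not counts, a count test was not the main one. Alternatives were median centring, quantile normalization, log2(RPM + 1), voom on the recovered reads, array weights, a term for the set of libraries, a replicate block, no filter and each library left out, and a common floor was added after seeing the data. All members are named. By library are given the 10 with the smallest *P*-values and the receptors other than *Fgfr2*. From each pathway list the 3 genes with the smallest *P*-values are named, from each marker list the 2 with the highest mean RPM and, chosen after their values were seen, those called. For 1 gene that this rule names, the result is not reported here. The members, lists and alternatives were chosen with earlier results of these data known. Promoter windows are RefSeq's. Python 3.11.15, pandas 2.3.3, numpy 2.4.6 and matplotlib 3.10.9 were used for tables and plots.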

Additional observations from a re-analysis of the deposited data

Results flagged for a closer look

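Of 58 groups of values of the tested members, 5 held a library set far apart from the rest of its group by Dixon's test, where chance gives 1 in 20 groups, or 2.9. Cryptorchid replicate 2 was far below its group for *Dusp4*, at 0.52 log2 RPM on 16 reads, where the next library was at 2.18, and for *Fgfr1op*, at 6.33 on 899 reads, where the next was at 7.32. *Spred3* was at -2.85 on 4 reads in control replicate 2, with the next control at 0.15. *Fgf18* was at 1.90 on 17 reads in cryptorchid replicate 6, with the next library at -1.92. *Klb* was at -2.22 on 1 read in cryptorchid replicate 7, with the next at 1.18. Of these genes *Dusp4* alone was called, and its difference without that library is given above.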

How the results depend on the processing

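Settings that keep the 12 libraries gave 333 of 376 log2 differences of tested members and named pathway genes the same direction and side of the threshold, 8 lost the call, 21 gained it and 14 changed sign. With 1 library left out the numbers were 475, 28, 32 and 29 of 564. Low read numbers limit most ligands, and median centring and quantile normalization moved the log2 differences of all genes by a median of -0.07 and -0.06. The cause of these changes was not tested.

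The count of members called higher was 1 with quantile normalization, log2(RPM + 1), the common floor and the replicate block, and 2 members (*Fgfr1* and *Fgf9*) had an adjusted *P*-value under 0.05 with array weights. All genes called lower were 703 with array weights, 635 with a term for the set and 900 with the replicate block. Genes with an adjusted *P*-value under 0.05 were 4 with median centring and with quantile normalization, 476 with array weights, 46 with the term for the set and 949 with the replicate block. Array weights gave replicates 4 and above 1.26 to 2.97 and replicates 1 to 3 0.368 to 0.79. Pathway genes called higher were 1 with quantile normalization, 4 with voom and with the term for the set, 7 with array weights and 5 with the replicate block, and those called lower were 3 with median centring and quantile normalization, 2 with log2(RPM + 1) and with the term for the set, 5 with array weights and 4 with the replicate block. Pathway genes that gained the call were *Ier3* (1.57 with array weights, 1.89 with the term for the set, 2.07 with the replicate block), *Dusp8* (1.24 with log2(RPM + 1), 1.97 with voom, 1.86 with the term for the set), *Frs3* (-1.69 with median centring and with quantile normalization, -1.18 with log2(RPM + 1), -1.90 with array weights, -1.97 with the replicate block), *Dusp10* (-1.21 with array weights, -1.17 with the replicate block) and, with array weights alone, *Gpc6* (1.08), *Hs3st1* (1.01), *Xylt1* (1.22) and *Map2k2* (-1.09). Marker genes called lower were 8 with the term for the set and 12 with the replicate block.

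Differences that changed sign, none of them called, were *Klb* (0.10 with voom, 0.32 with the replicate block), *Fgf20* (0.11) and *Dusp6* (0.048) with the replicate block, *Fgfr4* with log2(RPM + 1) (0.14), *Fgfr3* (0.02 with voom, 0.062 with array weights), *Fgf1* (-0.029 with median centring, -0.025 with quantile normalization, -0.10 with array weights) and *Fgf10* (0.023 with log2(RPM + 1), 0.011 with voom, 0.051 with the term for the set, 0.078 with the replicate block).

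With each library left out in turn, members called higher were 1 (without cryptorchid replicate 6) to 3, and members called lower 0 (without control replicate 5) to 4, with 1 without cryptorchid replicate 3 or 6. Genes with an adjusted *P*-value under 0.05 were 0 to 9, pathway genes called higher 1 to 6 and lower 0 to 3, and marker genes called lower 4 to 7. Ranges that cross 0 were -0.71 to 0.21 for *Klb*, -0.40 to 0.033 for *Fgfrl1*, -0.49 to 0.083 for *Spry1*, -0.059 to 0.22 for *Spred2*, -0.63 to 0.23 for *Fgfr4*, -0.44 to 0.14 for *Spry4*, -0.31 to 0.24 for *Fgfr3*, -0.36 to 0.55 for *Fgf1* and -0.31 to 0.14 for *Fgf10*.

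Control and cryptorchid libraries of the same number deviated together with correlations of 0.347, 0.363, 0.411, 0.250 and 0.0488 across genes, so not every pair passed 0.1 and the numbers were not taken to pair the libraries. Libraries 1 to 4 of the control group correlated best with their own number and control replicate 5 with cryptorchid replicate 7 (0.274). With the replicate block, which uses the 5 numbers that both groups have, the differences were 2.32 for *Fgf16*, which lost the call (limma, unadjusted *P*=0.0529), and -1.04 for *Fgf2*, which kept it.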
